A study of Mus musculus with 8 samples.

Results

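The 48 genes described here encode the machinery that copies the genome and the enzymes that make its deoxynucleotides. They were listed by name, with earlier results of these data known, and cover origin recognition, helicase loading, origin firing, the replicative polymerases, the sliding clamp and its loader, nucleotide supply and the chromatin factors that follow the fork. All 48 were among the 30325 names on the array, with 64 probes between them. Of these genes 44 passed the filter on dim probes and were tested among 19528 genes, and 38 of the 44 were well above background on all 8 arrays.

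RNA came from laser-captured lower crypts of the mouse jejunum, on 4 arrays from fasted mice and 4 arrays from fed mice. Fasted mice were without food for 24 h and fed mice were not. Both groups then had etoposide at 80 mg/kg through the tail vein, a drug that traps topoisomerase II and leaves breaks in DNA, and tissue was taken 3 h later. All mice were Lgr5EGFP-IRES-CreERT2/+ animals of 4 to 6 weeks (the strain label writes CreER2 in place of CreERT2), a knock-in at the Lgr5 locus, and were given moistened food pellets after the injection. Each group had 2 arrays labelled male and 2 labelled female. No array analysed here came from mice without etoposide, so the comparison is of fasting within drug-treated animals and does not show the drug's own effect. The labels do not say outright that each array is a different mouse, so the p-values measure the spread between these arrays, and in captured tissue fewer cycling cells and less RNA per cell cannot be told apart.

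A cell licenses its replication origins in G1, when the origin recognition complex with Cdc6 and Cdt1 loads the MCM2-7 helicase on DNA. In S phase the Cdc7-Dbf4 kinase, Mcm10, Cdc45 and the GINS complex turn the loaded helicase into a moving fork, on which primase and the polymerases copy both strands. Many of these genes are transcribed by E2F factors as cells pass from G1 into S phase. In the intestine most division takes place in the crypt, where stem cells at the base and the cells just above them cycle.

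The sequences that follow identify the leading measurement and show the promoter letters that many members share. The first is the 60-base array probe that stood for Orc3, the member with the smallest p, at chr4:34518076-34518135 on the minus strand in mm9.
Orc3 probe: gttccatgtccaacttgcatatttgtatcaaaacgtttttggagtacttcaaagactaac
The next 4 are promoters from RefSeq (GRCm38.p6), chosen among the genes described below because they hold an octamer of the E2F type, each with 250 bases before and 50 bases after a transcription start. They belong to Orc3 (minus strand, chr4:34614893-34615192), Mcm6 (minus strand, chr1:128359656-128359955), Uhrf1 (plus strand, chr17:56304063-56304362) and Lig1 (plus strand, chr7:13278576-13278875). The table lists 1 more promoter for Uhrf1 and 2 more for Lig1, all without an octamer, and none for Pola2, Pold2 or Rfc4 holds one. Capitals mark the octamers, and in Mcm6 the first run of capitals is a pair of octamers that overlap.
Orc3 promoter: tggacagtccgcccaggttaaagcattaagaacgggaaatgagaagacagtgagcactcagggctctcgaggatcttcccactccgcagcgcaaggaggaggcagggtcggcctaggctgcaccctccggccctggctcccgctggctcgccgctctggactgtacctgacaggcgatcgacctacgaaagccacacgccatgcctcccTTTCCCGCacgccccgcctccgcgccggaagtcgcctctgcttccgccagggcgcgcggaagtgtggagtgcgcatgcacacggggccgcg
Mcm6 promoter: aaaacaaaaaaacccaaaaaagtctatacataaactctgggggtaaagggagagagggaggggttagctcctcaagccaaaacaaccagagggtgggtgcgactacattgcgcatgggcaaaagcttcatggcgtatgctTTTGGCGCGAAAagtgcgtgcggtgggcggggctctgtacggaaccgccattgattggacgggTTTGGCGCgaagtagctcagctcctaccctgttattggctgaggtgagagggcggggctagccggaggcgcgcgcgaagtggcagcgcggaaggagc
Uhrf1 promoter: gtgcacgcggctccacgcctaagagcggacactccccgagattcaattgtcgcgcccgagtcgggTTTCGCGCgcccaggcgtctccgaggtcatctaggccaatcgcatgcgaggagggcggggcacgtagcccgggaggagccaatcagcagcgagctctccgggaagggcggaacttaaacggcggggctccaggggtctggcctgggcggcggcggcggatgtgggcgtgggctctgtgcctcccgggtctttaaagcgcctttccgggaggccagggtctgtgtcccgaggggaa
Lig1 promoter: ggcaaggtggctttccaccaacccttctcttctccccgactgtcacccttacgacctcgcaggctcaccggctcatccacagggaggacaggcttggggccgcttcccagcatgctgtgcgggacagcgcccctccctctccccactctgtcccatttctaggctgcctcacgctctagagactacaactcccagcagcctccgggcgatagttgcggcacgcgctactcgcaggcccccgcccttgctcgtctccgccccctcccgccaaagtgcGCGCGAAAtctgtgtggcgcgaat
The octamers searched were TTTCCCGC, TTTCGCGC, TTTGCCGC and TTTGGCGC on both strands, with overlapping matches counted. The promoter table held 40 of the 48 genes, and 16 of these 40 (40.0%) had an octamer in at least 1 listed promoter, against 2.60% of all 27025 genes in the table and 3.91% of tested genes with a promoter. The CCAAT box stood in 55.0% of the 40 genes and in 41.1% of all genes. These are letter matches and describe no binding. Of 12 tested members with an octamer, 11 had a higher mean signal in fasted crypts (median log2 difference 0.24). Of 24 tested members whose listed promoters held no octamer, 16 did (median 0.22).

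Signal is given as log2 of the background-subtracted intensity over the array's 75th percentile, so a value of 0 is a spot as bright as that percentile, and values of different probes are not comparable levels. A probe that was well above background by the scanner software's test is said to clear background. The share of probes well above background ran from 53.6% to 65.4% on fasted and from 53.2% to 62.7% on fed arrays. In correlation with the others, fasted replicate 3 was the odd array, and it was alone on its slide and scan day. Fed replicate 4, labelled female, had Xist not well above background and Eif2s3y well above it, which goes against its label. On fed replicate 1, labelled male, neither of these transcripts was well above background. Slides 2, 3 and 5 each held 1 fasted and 1 fed array, while fasted replicate 3 (slide 1) and fed replicate 2 (slide 4) had no partner.

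As a group, replication genes had slightly higher mean signals in fasted than in fed crypts, by less than the spread between arrays, and none of them passed the test. Of the 44 genes, 31 had a higher mean in fasted crypts and 13 a lower one, while 44.5% of all tested genes were higher. Their median log2 difference, fasted minus fed, was 0.20, against -0.06 over all genes. The fitted differences ran from -1.26 for Dbf4, which rests on readings near background, to 1.23 for Orc3. With limma and Benjamini-Hochberg adjustment, 0 of 44 members and 0 of 19528 genes (0.00%) were called, and the members' adjusted p ran from 0.787 to 0.997. At an unadjusted limma p under 0.05, Orc3, Pola2, Pold2 and Uhrf1 were higher and Lig1 was lower in fasted crypts. That is 11.4% of the members, against 5.95% of all genes (3.93% higher and 2.02% lower). That list depends on the fit. A slide block draws the difference only from slides that held both groups. It takes nothing from fasted replicate 3 or fed replicate 2, so what changed the list cannot be told apart. With the slide as a block in place of labelled sex, Orc3, Gmnn, Prim1, Pold2, Pcna, Rfc4 and Rrm2 were higher and Dbf4 lower at that threshold in limma, as were 13.1% of all genes in either direction. Pola2, Uhrf1 and Lig1 then missed it, with an unadjusted limma p of 0.0794 for Pola2, 0.0553 for Uhrf1 and 0.0555 for Lig1.

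The shift was not shared by all fasted arrays. The members' median deviation from each gene's own mean was 0.45, 0.15, 0.16 and -0.34 on fasted replicates 1 to 4, against 0.08, -0.07, -0.20 and -0.20 on fed replicates 1 to 4. Fasted replicate 4 thus had the lowest median of all 8 arrays, and the groups overlapped. The pooled SD of these medians was 0.251, larger than the median difference of 0.20.

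**Figure D1:**
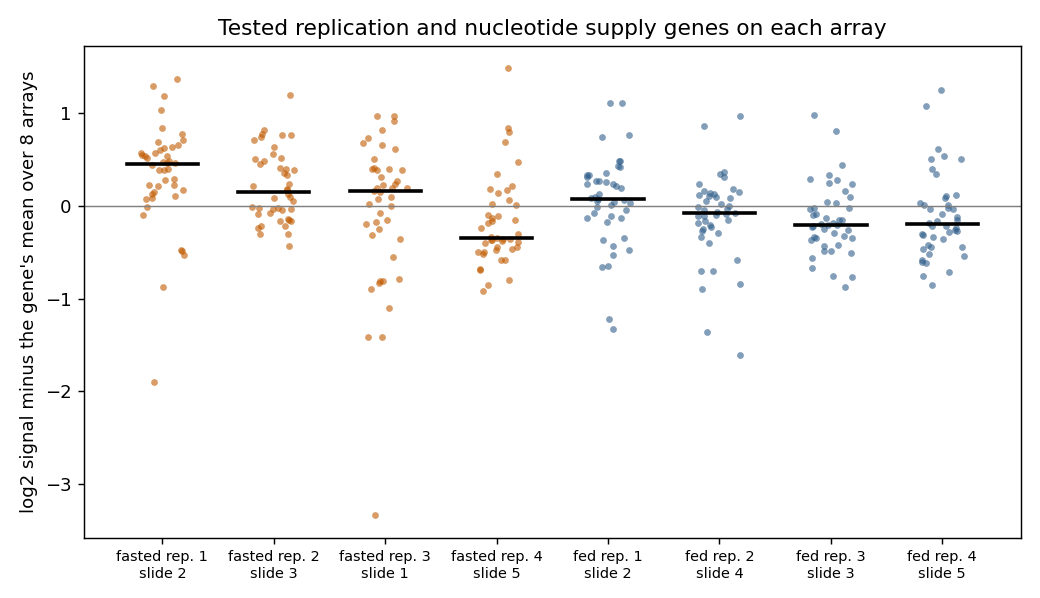
Each point is 1 of the 44 tested genes on 1 array, plotted as log2 signal minus the gene's mean over the 8 arrays, with the 4 fasted arrays left and the 4 fed arrays right. Bars are array medians, which lie at 0.45, 0.15, 0.16 and -0.34 in fasted and at 0.08, -0.07, -0.20 and -0.20 in fed crypts.

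Within the slides that held both groups, the members' median difference was 0.27 on slide 2, 0.32 on slide 3 and -0.08 on slide 5, while the medians over all genes were -0.07, -0.04 and 0.00. The members were thus higher in fasted crypts on 2 of 3 shared slides. On all 3, 11 members were higher in the fasted array and 1, Dbf4, was lower in partly background readings, against 18.0% and 22.0% of all genes. Without fasted replicate 3 and fed replicate 4 the members' median was 0.12. Sex was not matched on every shared slide. On slide 3 the fasted array was labelled male and the fed array female. On slide 5 both were labelled female, but the transcripts of fed replicate 4 go against its label. Within slides 3 and 5 a difference of fasting therefore cannot be told apart from one of sex.

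**Figure D2:**
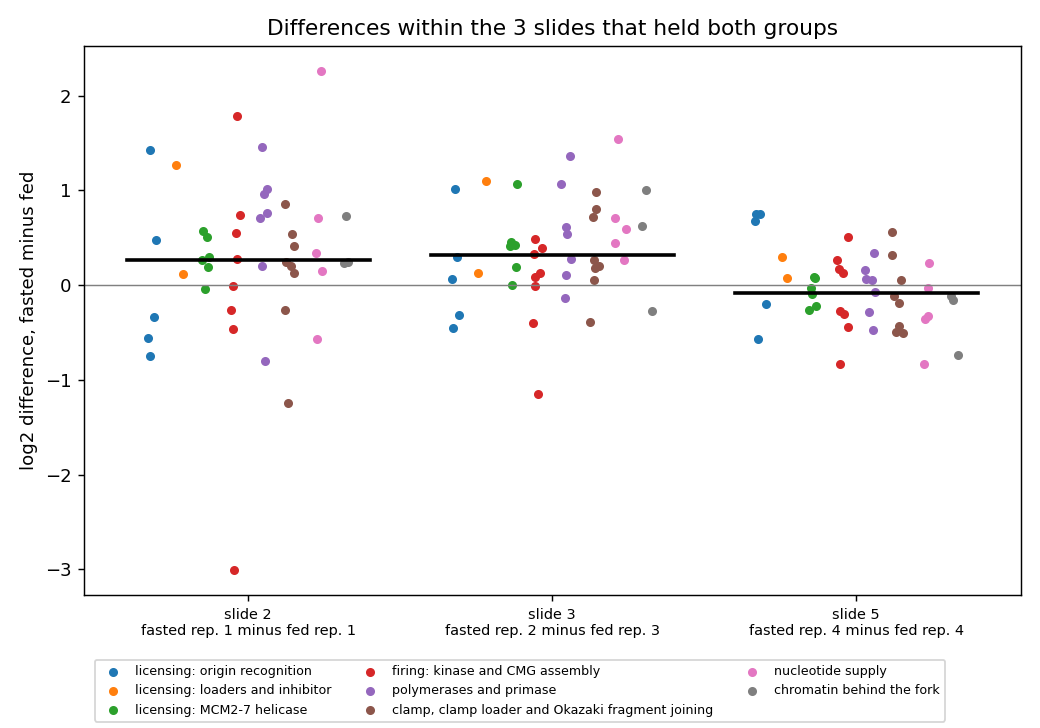
Each point is the log2 difference, fasted minus fed, of 1 tested gene between the 2 arrays of a slide, coloured by role, with the median as a bar. The medians are 0.27 on slide 2, 0.32 on slide 3 and -0.08 on slide 5, and Orc3 is above 0 on all 3.

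The origin recognition complex marks origins and recruits the loaders. Its subunits did not share a direction, with Orc3 and Orc4 higher and Orc2 (-0.31), Orc5 (-0.37) and Orc6 (-0.10) lower in fasted crypts, and a median of -0.10. Orc3 read -1.01, -1.15, -0.82 and -1.72 on the fasted arrays, against -2.43, -2.63, -2.16 and -2.39 on the fed arrays. Every fasted value lay above every fed value. The means were -1.17 ± 0.39 on the fasted arrays and -2.40 ± 0.19 on the fed arrays (± SD over 4 arrays a group), a 2.35-fold higher signal in fasted crypts. The log2 difference was 1.23 (SE 0.31, 95% interval 0.53 to 1.93), with an unadjusted limma p of 0.00363 and an adjusted p of 0.787.

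By the probe that stood for each gene, Orc3 and Rfc4 were the 2 members whose groups did not overlap. Both were higher in fasted crypts, where 2.97% of all genes did the same. No member was lower on every fasted array than on every fed array, against 2.10% of genes. Within slides Orc3 was higher in the fasted array, by 1.43, 1.01 and 0.67 on slides 2, 3 and 5, and its difference lay between 0.73 and 1.46 over all alternative settings. Its second probe, further along the transcript, cleared background on 2 arrays of fasted and 1 of fed crypts and gave no usable difference.

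Orc4 read -1.07, -0.98, -0.09 and -1.42 on the fasted arrays and -1.55, -0.90, -1.28 and -1.23 on the fed arrays, a difference of 0.35 (SE 0.34, 95% interval -0.43 to 1.13). For this probe the difference rested on fasted replicate 3, and without that array and fed replicate 4 it was 0.09. A second, dimmer Orc4 probe cleared background on 3 fasted arrays, replicate 3 not among them, and 1 fed array. Its difference of 1.07 rests on fed readings mostly near background and is not a measured size. Orc1, the large subunit, did not clear background on any array.

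Of the loaders, Cdc6 did not clear background on any array with either of its probes. Cdt1, its partner in bringing the helicase to DNA, read -0.13, -0.82, 0.16 and -0.66 in fasted and -0.25, -0.51, -0.94 and -0.95 in fed crypts, with overlapping groups and a difference of 0.30 (SE 0.31, 95% interval -0.40 to 1.01). That difference was 0.03 without fasted replicate 3 and fed replicate 4. Gmnn encodes geminin, which binds Cdt1 and blocks loading a second time. It read -0.35, -0.95, -5.06 and -1.03 on the fasted arrays, against -1.62, -1.58, -2.05 and -1.10 on the fed arrays. The other fasted values were above every fed value, and fasted replicate 3 was far below the rest and not well above background. The difference of -0.26 (SE 0.88, 95% interval -2.26 to 1.75) turned to 0.79 without fasted replicate 3. A second probe assigned to Gmnn lies on the opposite strand and need not measure this transcript, and its log2 difference was 0.68.

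The MCM2-7 helicase unwinds DNA at the fork. All 6 subunits had a higher mean in fasted crypts, with differences of 0.43 for Mcm2, 0.11 for Mcm3, 0.18 for Mcm4, 0.17 for Mcm5, 0.53 for Mcm6 and 0.21 for Mcm7. None reached an unadjusted p under 0.05 in limma. The median was 0.20, and 0.09 without fasted replicate 3 and fed replicate 4. Over the alternative settings Mcm3 ran from -0.22 to 0.30 and Mcm5 from -0.02 to 0.33, so their direction was not settled.

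Mcm6 read 2.87, 2.75, 2.86 and 1.57 on the fasted arrays and 2.29, 2.27, 1.68 and 1.66 on the fed arrays. 3 fasted arrays were above every fed array, and fasted replicate 4 was the lowest of the 8. Its difference was 0.53 (SE 0.27, 95% interval -0.09 to 1.16), with an unadjusted limma p of 0.0845. Mcm2 read 0.22, 0.33, 0.65 and -0.35 in fasted and -0.05, -0.26, -0.13 and -0.44 in fed crypts, again with 3 fasted arrays above all fed arrays. Its difference was 0.43 (SE 0.26, 95% interval -0.17 to 1.04).

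The low values were common to the subunits. On fasted replicate 4 all 6 were below their own means, with a median deviation of -0.49. On fed replicate 4, the other array of slide 5, all 6 were below their means too, with a median deviation of -0.45. The remaining fasted arrays had median deviations of 0.42, 0.25 and 0.41, and the remaining fed arrays 0.06, -0.02 and -0.19. Within slide 5 the median difference between the groups was -0.06, against 0.28 on slide 2 and 0.42 on slide 3. The part of the slide in these values was not tested.

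**Figure D3:**
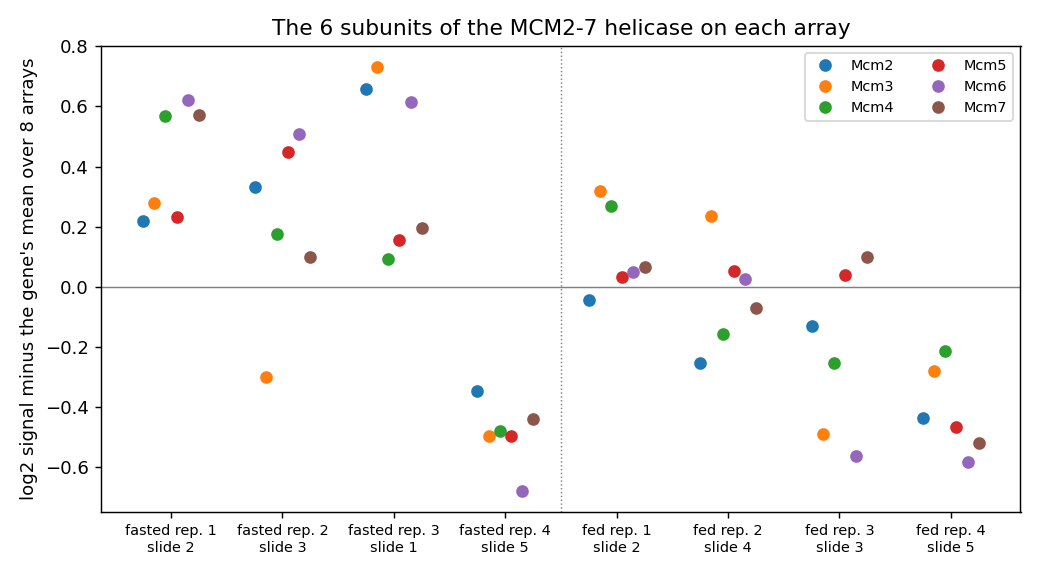
Points are the 6 MCM subunits on each array, as log2 signal minus the gene's mean over 8 arrays, with fasted arrays left and fed arrays right. Both arrays of slide 5, fasted replicate 4 and fed replicate 4, have all 6 subunits below 0, with medians of -0.49 and -0.45.

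Genes that fire origins and build the moving helicase had a median difference of 0.01, which changed sign in 5 alternative settings. Dbf4, the regulatory subunit that activates the Cdc7 kinase, read -5.75, -4.02, -3.46 and -4.70 on the fasted arrays, against -2.74, -2.88, -2.87 and -4.39 on the fed arrays. It cleared background on fasted replicate 3 and on fed replicates 1, 2 and 3, so most fasted values are readings near background. The fitted difference was -1.26 (SE 0.68, 95% interval -2.82 to 0.30), with an unadjusted limma p of 0.1, and its size is not a measured fold. On slides 2 and 3 the fed array cleared background and the fasted array did not, and on slide 5 neither did. Its partner Cdc7, the catalytic subunit, cleared background on 2 fasted and 2 fed arrays and had a difference of 0.52 (SE 0.84, 95% interval -1.41 to 2.46), so that neither direction was resolved. Gins1, a subunit of the GINS complex, read -0.48, -1.19, -1.10 and -1.41 in fasted and -0.76, -1.25, -1.27 and -1.93 in fed crypts, with overlapping groups and a difference of 0.26 (SE 0.29, 95% interval -0.42 to 0.93). The remaining GINS subunits, Cdc45 and Mcm10 lay between -0.12 and 0.02.

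The polymerases and primase had the highest median of the role groups, 0.57, with 6 of 7 tested members higher in fasted crypts. Pola2, the regulatory subunit of polymerase alpha, which starts each new strand with primase, read 0.65, -0.15, -0.22 and -1.10 on the fasted arrays. On the fed arrays it read -0.81, -1.34, -1.51 and -0.63. 3 fasted arrays were above all fed arrays, and fasted replicate 4 lay among them. The difference was 0.87 (SE 0.38, 95% interval 0.01 to 1.73), with an unadjusted limma p of 0.0483, and it was 1.46, 1.37 and -0.47 on slides 2, 3 and 5.

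Pold2, the accessory subunit of the lagging-strand polymerase delta, read 2.16, 1.91, 1.80 and 1.36 in fasted and 1.15, 1.13, 1.37 and 1.30 in fed crypts. The lowest fasted value and the highest fed value nearly coincided, and the other fasted values were higher. Its difference was 0.57 (SE 0.22, 95% interval 0.08 to 1.07), with an unadjusted limma p of 0.0289. Prim1, the catalytic primase subunit (0.71), Pole, the leading-strand polymerase (0.63), Pold3 (0.34) and Pold1 (0.27) were higher in fasted crypts with intervals that held 0. Pola1 cleared background on 2 fasted arrays and no fed array, and Pole2 on none.

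Prim2, the large primase subunit, was measured by probes that differed in sign. The brighter one, well above background on all arrays, gave -0.36 (SE 0.35, 95% interval -1.16 to 0.45). It is assigned to a record outside RefSeq and need not measure the RefSeq transcript, to which the second probe is assigned. The second cleared background on 3 fasted arrays and no fed array. Its fasted mean, which includes replicate 4 not clear of background, was 1.57 times a fed bound, a minimum against the fed signal. That bound takes, on each fed array, either the probe's own signal or, where higher, that of the dimmest probe clear of background. The second probe passed on too few arrays to be tested.

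**Figure D4:**
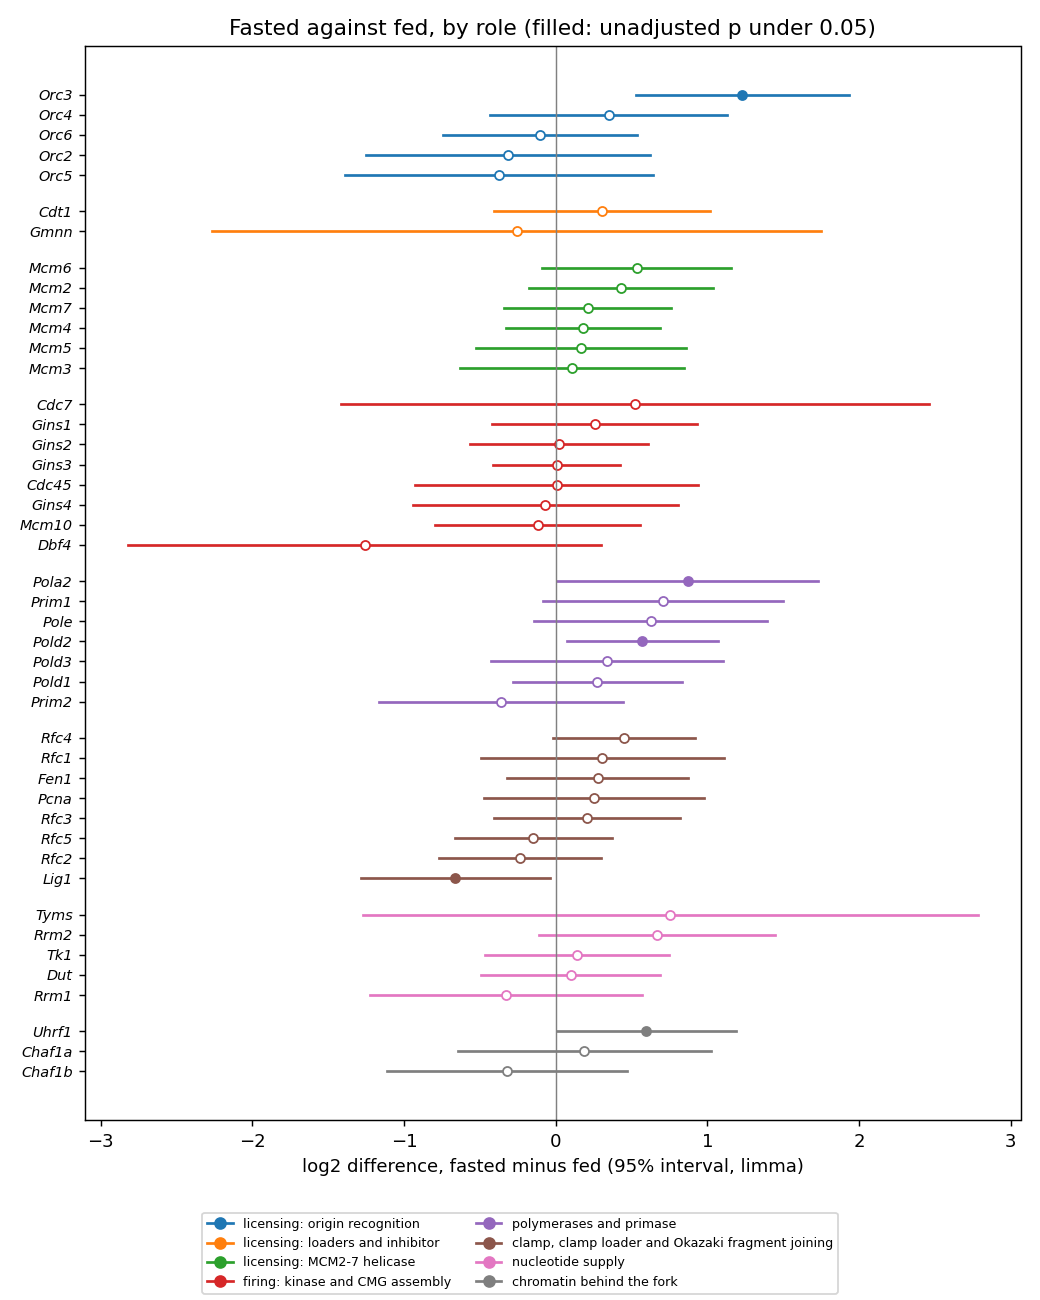
Points are limma log2 differences, fasted minus fed, with 95% intervals for the 44 tested genes, grouped by role and filled where the unadjusted p is under 0.05. The 4 filled points above 0 are Orc3, Pola2, Pold2 and Uhrf1, and the 1 below 0 is Lig1.

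The sliding clamp, its loader and the enzymes that join Okazaki fragments had a median of 0.23, with 5 of 8 members higher in fasted crypts. The median was 0.04 without fasted replicate 3 and fed replicate 4. Rfc4, a subunit of the clamp loader, read 1.08, 0.63, 1.08 and 0.82 on the fasted arrays and 0.55, 0.58, 0.43 and 0.26 on the fed arrays. Every fasted value was above every fed value. The difference was small, 0.45 (SE 0.21, 95% interval -0.02 to 0.92), with an unadjusted limma p of 0.0589. A second, dimmer Rfc4 probe, also well above background on all arrays, gave 0.18, and its groups overlapped. The other loader subunits lay between -0.24 for Rfc2 and 0.31 for Rfc1.

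Lig1, the ligase that seals Okazaki fragments, went the other way. It read 1.95, 2.39, 1.59 and 2.44 in fasted crypts, against 3.19, 2.56, 2.33 and 2.94 in fed crypts. The groups overlapped only through fed replicate 3, which was below 2 of the fasted arrays. Its difference was -0.66 (SE 0.27, 95% interval -1.28 to -0.04), a 1.58-fold higher signal in fed crypts, with an unadjusted limma p of 0.0397. Within slides it was -1.24, 0.06 and -0.50. Fen1, the nuclease that trims the fragments before ligation, had a difference of 0.28.

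Pcna, the clamp itself, read 0.14, 0.39, -1.18 and -0.35 on the fasted arrays and -0.72, -0.28, -0.60 and -0.40 on the fed arrays. Fasted replicates 1 and 2 were above all fed arrays and fasted replicate 3 below all of them. The difference was 0.25 (SE 0.32, 95% interval -0.48 to 0.97), and 0.59 without fasted replicate 3 and fed replicate 4.

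The genes of nucleotide supply had a median of 0.14, and 4 of 5 were higher in fasted crypts. Rrm2 encodes the S-phase subunit of ribonucleotide reductase, which makes deoxynucleotides. It read 0.64, 0.23, -0.80 and -0.94 in fasted and -0.07, -1.26, -1.31 and -0.91 in fed crypts, with fed replicate 1 above 2 of the fasted arrays. Its difference was 0.67 (SE 0.34, 95% interval -0.11 to 1.45), with an unadjusted limma p of 0.0838. Rrm1, the large subunit of the same enzyme, had a difference of -0.33 (SE 0.39, 95% interval -1.23 to 0.57), in the other direction. Tyms, which makes thymidylate, was close to background, and clear of it on 3 arrays of fasted and 1 of fed crypts. It read -3.44, -4.08, -5.90 and -3.00 on the fasted arrays and -5.71, -5.84, -4.67 and -3.23 on the fed arrays, with a difference of 0.76 (SE 0.88, 95% interval -1.27 to 2.78). Tk1 (0.14), the thymidine salvage kinase, and Dut (0.10), which removes dUTP, were near 0. A second Tk1 probe, also well above background on all arrays, gave -0.14, so the direction of Tk1 was not settled.

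Rrm1 and Rrm2 were the 2 members with an unadjusted limma p under 0.05 between the labelled sexes, where 2.27% of all genes had one. Rrm1 was higher by 1.00 and Rrm2 by 0.88 on the log2 scale in arrays labelled male than in arrays labelled female. Over the alternative settings that hold labelled sex, from 0 to 13 members had such a p, so this pair was not settled. No member (0.00% of all genes) passed the adjusted threshold for labelled sex, and 1 of the 8 labels goes against the transcripts.

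Of the chromatin factors, Uhrf1, which brings the maintenance DNA methyltransferase to new DNA, read 1.82, 1.89, 1.36 and 0.80 on the fasted arrays and 1.10, 0.59, 0.88 and 0.91 on the fed arrays. 3 fasted arrays were above all fed arrays, and fasted replicate 4 lay among them. The difference was 0.60 (SE 0.26, 95% interval 0.01 to 1.19), with an unadjusted limma p of 0.048, and a second probe gave 0.72. Chaf1b, a subunit of the histone chaperone CAF-1, read 0.95, 0.80, -0.28 and 1.17 in fasted and 0.71, 0.81, 1.07 and 1.33 in fed crypts. Its difference of -0.32 (SE 0.35, 95% interval -1.11 to 0.47) rested on fasted replicate 3, and was 0.06 without it. A second Chaf1b probe, also well above background on all arrays, gave -0.03. Chaf1a, the large subunit of the same chaperone, had 0.19.

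**Figure D5:**
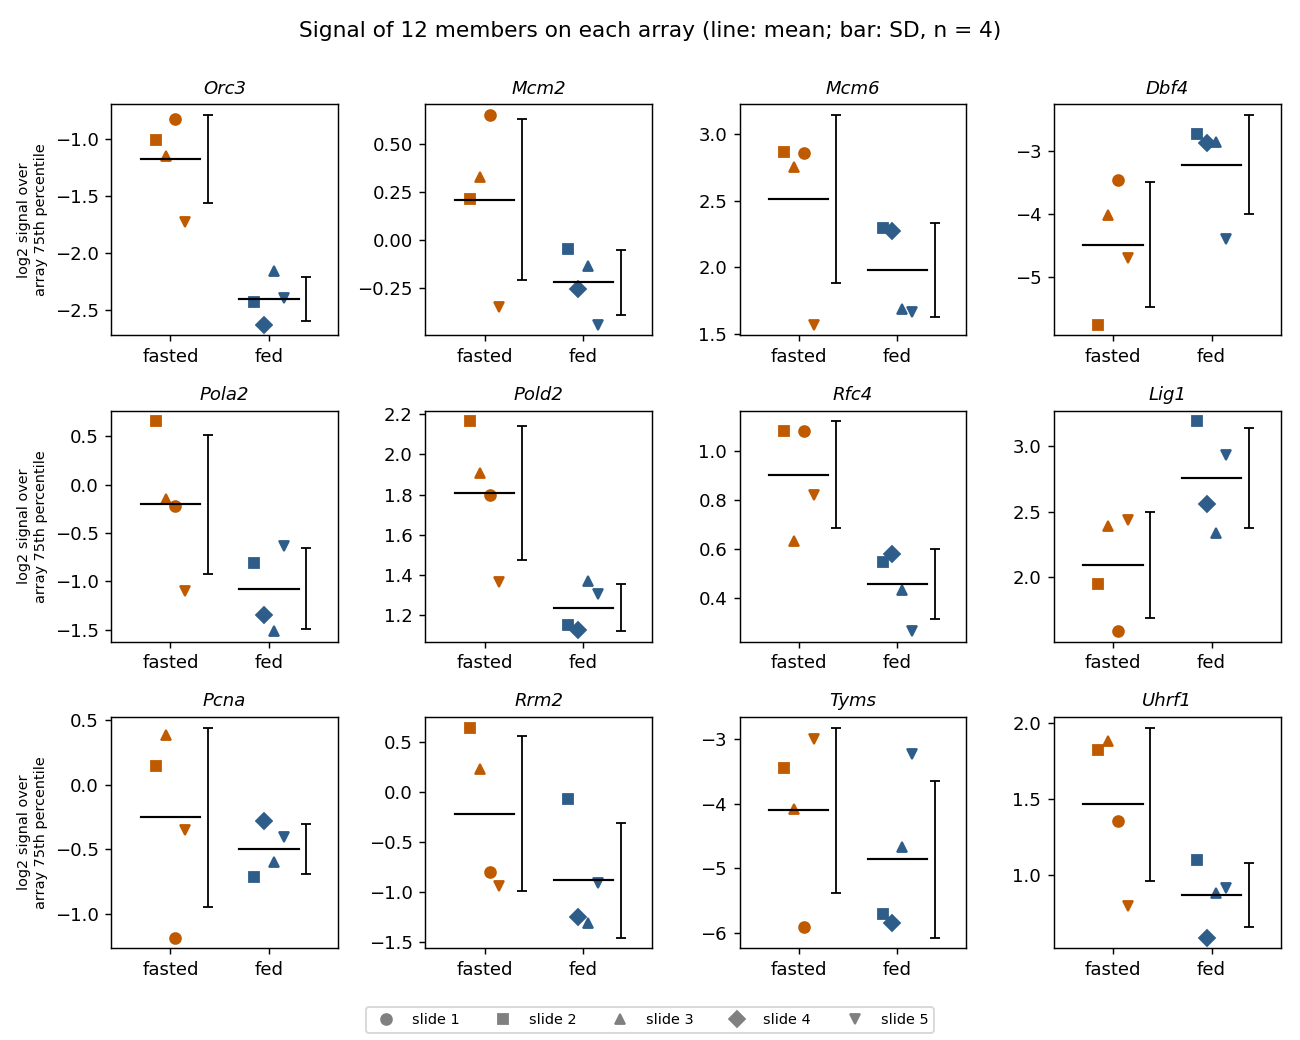
Points are single arrays for 12 of the genes, fasted left and fed right, as log2 signal over the array's 75th percentile, with symbols for slides, lines for means and bars for SD (n = 4). The groups do not overlap for Orc3 and Rfc4, and overlap for the other 10.

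Another 75 gene names of the same pathways, not among the 48, were listed by function, with 72 of them on the array. The 75 include alternative names of the same gene, such as Hprt and Hprt1. Of 63 tested, 44 (69.8%) were higher in fasted crypts, against 44.5% of all genes. The median difference was 0.16, and 0 passed the adjusted threshold in limma. At an unadjusted limma p under 0.05, 4 of the 63 were higher and 0 lower, against 3.93% and 2.02% of all genes. The fork and origin factors had a median of 0.05, with 0 genes under that p. Rif1, which holds back late origins, had 0.79 (SE 0.38), and Rpa1, the large subunit of the single-strand binding protein, 0.43 (SE 0.26). The replication chromatin factors had a median of 0.22, Cdca7 0.63 (SE 0.29) and Mms22l -0.26 (SE 0.14).

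Among deoxynucleotide and thymidylate factors 3 of 15 tested genes were higher at an unadjusted limma p under 0.05, against 3.93% of all genes. The median was 0.16. Cda, the cytidine deaminase, averaged 0.90 ± 0.59 in fasted and -0.24 ± 0.78 in fed crypts, a difference of 1.14 (SE 0.42). Dctd, which supplies dUMP for thymidylate synthesis, averaged -0.21 ± 0.29 in fasted and -1.05 ± 0.68 in fed crypts, a difference of 0.85 (SE 0.31). Among purine and pyrimidine synthesis genes 1 of 19 reached that p, against 5.95% of all genes in either direction, and the median was 0.16. Ppat, the first enzyme of purine synthesis, had 1.14 (SE 0.37), and Cad, which starts pyrimidine synthesis, 0.32 (SE 0.18).

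Markers of cell types in and around the crypt were read from the same fit, in which 0 passed the adjusted threshold. All 22 tested absorptive enterocyte markers had higher means after the fast, the median being 0.95. Of these, 13 were higher at an unadjusted limma p under 0.05, against 3.93% of all genes. Treh cleared background on 3 fasted arrays and 1 fed array, and Slc15a1 on 4 and 2, so their differences hold readings near background. The summed signal of the 22, relative to the array's 75th percentile, was 165 to 262 on the fasted arrays and 101 to 145 on the fed arrays. Of 11 tested Paneth cell markers 10 were lower, with a median of -0.44 and a summed signal of 434 to 541 in fasted and 547 to 778 in fed crypts. Of 11 tested crypt base stem cell markers 6 were higher, with a median of 0.07 and a summed signal of 17.7 to 32.5 in fasted and 20.7 to 49.9 in fed crypts, and Lgr5 did not clear background on any of the 8. Olfm4, the gene of that list with the smallest p, was lower. It read 2.37, 2.09, 1.91 and 0.91 on the fasted arrays and 3.32, 3.20, 2.74 and 2.44 on the fed arrays. Its groups did not overlap, where 2.10% of all genes were lower in this way. Its log2 difference was -1.11 (SE 0.24), with an unadjusted limma p of 0.00171 and an adjusted p of 0.787. Among the 6 that were higher, Cdca7 had 0.63 (SE 0.29), Ascl2 0.59 (SE 0.46) and Smoc2 0.42 (SE 0.35). Of 7 tested leukocyte markers 6 were lower, with a median of -0.33 and a summed signal of 164 to 253 in fasted and 248 to 299 in fed crypts, much of it from Itgam, whose log2 signal averaged 7.14 in fasted and 7.53 in fed crypts.

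The median was -0.18 for goblet cells (2 of 9 tested genes higher), 0.17 for enteroendocrine cells (7 of 11), 0.24 for tuft cells (4 of 6), -0.08 for fibroblasts and smooth muscle (4 of 10) and -0.18 for endothelium (1 of 5). Lyz1 and Olfm4, which mark Paneth and stem cells at the crypt base, were well above background on all arrays.

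Genes of G2 and mitosis, which act after replication is done, had mostly lower means in fasted crypts. Of 11 tested 9 were lower, the median being -0.21, with 0 at an unadjusted p under 0.05, and their summed signal was 5.49 to 14.1 in fasted and 6.65 to 11.6 in fed crypts. Its median deviations were 0.50, 0.08, -0.80 and -0.18 on fasted replicates 1 to 4 and 0.32, 0.23, 0.04 and -0.15 on fed replicates 1 to 4, so that fasted replicate 3 was the lowest. Top2a, Ccna2, Aurkb, Bub1 and Bub1b did not clear background on any array. Within slides the median of this list was 0.40, 0.02 and -0.16 on slides 2, 3 and 5. The part of these marker lists in the members' differences was not tested.

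The precision of the comparison bounds what it could have shown. The median 95% interval of a member reached 0.71 on the log2 scale to either side of its estimate, and for 20 of 44 members the whole interval lay within 1 of 0. The members' median SE was 0.31, against 0.35 over all genes.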

How the data were processed

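RNA from laser-captured jejunal lower crypts was labelled with Cy5 and hybridised to single-colour Agilent mouse arrays, according to the labels. Linear spot intensities, background-subtracted, are what the authors deposited, and Agilent Feature Extraction 11.5.1.1 is named in the submitters' processing notes. The authors' deposited value table, used as an alternative, holds log2 values whose ranks follow the signal (column medians 7.73 to 8.33); its scaling and centring are unknown.

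Control and outlier spots were left out, and 27655 of 39429 probes were named through RefSeq (GRCm38.p6), the rest by the files. Log2 processed signal minus the array's 75th percentile was fitted with limma 3.58.1 (R 4.3.3, lmFit and eBayes with a trend) on group and labelled sex. A probe was kept when 4 or more of the 8 arrays had it well above background, and the brightest probe stood for its gene. The threshold was a Benjamini-Hochberg p of 0.05 over 19528 genes. The fit was tested on simulated data. Array number limits the precision.

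Members, role groups and marker lists were chosen with earlier results of these data known. Values per array are given for the 2 members of each role group with the smallest p and for Mcm2, Cdc6, Pcna, Rrm2, Tyms and Uhrf1, except that a member below the filter (Cdc6) is given by its detection. From each other pathway list the 2 genes with the smallest p are named. Scaling, background, filter, probe, block and left-out arrays were varied.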

Additional observations from a re-analysis of the deposited data

Results flagged for a closer look

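In 3 of 34 groups of 4 arrays, 1 array lay far outside the rest by Dixon's test, where chance gives about 1 in 20. Gmnn was at -5.06 on fasted replicate 3, while the other fasted arrays lay between -1.03 and -0.35. Mcm6 was at 1.57 on fasted replicate 4, while the other fasted arrays lay between 2.75 and 2.87. Dbf4 was at -4.39 on fed replicate 4, while the other fed arrays lay between -2.88 and -2.74. The Gmnn and Dbf4 values so marked did not clear background. Values are log2 signal over the array's 75th percentile.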

How the results depend on the processing

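Over 22 alternative fits and a threshold of 0.1, 0 members and 0 genes were called for fasting. The smallest adjusted p was 0.114 over all genes, with the slide as a block, and 0.146 among members, with the slide as a random block. Between 27 and 34 members were higher in fasted crypts, and 1 to 7 members were higher at an unadjusted limma p under 0.05. Over all genes 479 to 3074 had such a p in either direction, and 352 to 1661 were higher at it. The 352 of 19528 genes came without fasted replicate 1, where 1 of 44 members was higher at that p. The 1661 of 19528 came with the slide as a random block, where 6 of 44 members were. The members' median difference stayed between 0.07 and 0.32, which is also its range with each array left out in turn. Gmnn became positive in 8 settings, at 0.026 with normexp and quantile normalization, 0.21 with the mean of its probes, 0.82 with the slide block, 0.16 with the slide as a random block and 0.66 with array weights. It was also positive at 0.79 without fasted replicate 3, 0.17 without fed replicate 4 and 0.98 without both, and ran from -0.82 to 0.79 with 1 array left out. Chaf1b became positive, at 0.056 without fasted replicate 3 (-0.53 to 0.056 with 1 array left out) and 0.11 without both arrays, and Orc4 became -0.026 with array weights. The origin recognition median, -0.10, changed sign in 3 settings, among them 0.12 with the filter on all 8 arrays and 0.07 without fasted replicate 4. The firing median ran from -0.07 to 0.13, the loaders median from -0.23 to 0.50, the chromatin median from -0.05 to 0.42 and the clamp median from 0.02 to 0.28. The causes were not tested. With the replicate number as a block 0 members were called and the median was 0.20. Array pairs were also compared by each gene's deviation from its group mean. In these deviations same-numbered arrays correlated at 0.37, -0.47, -0.45 and 0.61, so the numbers did not consistently pair the arrays. Arrays of shared slides 2, 3 and 5 correlated at 0.37, 0.54 and 0.61. The pairs of slides 2 and 5 are also those numbered 1 and 4, so number and slide cannot be told apart there.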
